A study of Homo sapiens with 33 samples.

Results

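The 10 genes described here are the cyclins E (CCNE1 and CCNE2), A (CCNA2) and B (CCNB1 and CCNB2), the kinases they bind (CDK1 and CDK2) and the CDC25 phosphatases (CDC25A, CDC25B and CDC25C). They were chosen by gene symbol for their roles in S phase and mitosis, with earlier results of these data known. All 10 were found among the 58302 genes of the matrix. All 10 were among the 17803 genes that reached 100 CP20M in at least 1 of 33 libraries and were tested. CP20M is the number of reads of a gene per 20000000 counted reads, rounded up to a whole number. The RNA-seq libraries came from 6 established lines grown in medium with serum. H2052, H2452, H28 and MSTO-211H are lines of malignant pleural mesothelioma (MPM) classed as sensitive to palbociclib, an inhibitor of CDK4 and CDK6. The resistant lines were MPP89, an MPM line whose RB1 is mutated, and, immortalized by SV40, the normal mesothelial cells MeT-5A. Cells received 1 µM palbociclib or 0.1% DMSO for 9 or 10 days, which gave 11 pairs of libraries in the sensitive lines (2 of H2052 and 3 of each other line) and 3 in the others (MPP89 with 2 pairs, MeT-5A with 1). MeT-5A also had 1 untreated library, and each sensitive line had 1 library from cells that were kept for 48 h without the drug after 10 days of treatment (washout). Replicates are separate experiments of the same line, so their spread is that of cultures and not of tumours.

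Cyclins are the regulatory subunits of the CDKs and are made and destroyed in turn through the cell cycle. Cyclin E with CDK2 completes the phosphorylation of pRb that cyclin D with CDK4 or CDK6 starts, cyclin A serves CDK2 in S phase and CDK1 later, and cyclin B with CDK1 drives entry into mitosis. CDC25 phosphatases remove the inhibitory phosphates from CDK1 and CDK2. Transcription of these genes falls under E2F factors at the start of S phase and, for the mitotic ones, under the DREAM and MuvB complexes with B-MYB or FOXM1, which bind a promoter element called CHR (cell cycle genes homology region).

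Each library sums to about 20000000 by construction, so its depth cannot be read from its total. The whole numbers that are skipped among low values gave an estimate for 23 of the 33 libraries, from 12770000 to 19830000 counted reads, at which 1 read is worth at most 1.57 CP20M. The keratins KRT8 and KRT18, which mesothelial cells express, were at 5770 CP20M or more and 1939 or more in the controls of every line, MSLN was between 4.33 in H28 and 4256 in H2052, and WT1 was at 1.00 in MeT-5A. Of 13 mesothelial markers, 5 to 8 were at 100 CP20M or more per line, and their summed level was 11308 to 140881 per library. Of 15 markers of blood, endothelial, lung epithelial and mesenchymal cells, 2 to 4 were at that level, with a summed level of 328 to 11896 per library. CD3E was at 0 in the controls of all 6 lines and PTPRC at 27.5 or less. CD68, another of the blood cell markers, was between 147 in H28 and 1159 in H2452, and ACTA2 reached 9598 in MPP89.

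In control cells, the highest levels of 9 of the 10 genes were in a resistant line. How many of all tested genes have their highest level in a resistant line was not counted. MeT-5A led for CCNE2, CCNA2, CCNB2, CDK1, CDK2, CDC25A, CDC25B and CDC25C, MPP89 led for CCNE1, and CCNB1 was the exception. CDK1 was at 3597 CP20M in the untreated and 3850 in the DMSO library of MeT-5A. The other lines had between 449 and 1670, and their ranges overlapped from each line to the next in the order H28, MPP89, H2452, H2052 and MSTO-211H. CCNB1 varied least, by 1.73-fold between the line means, with H2452 (2127 to 3485 CP20M), MeT-5A (2754 to 3043), H2052 (2078 to 3529) and MPP89 (2633 to 2742) overlapping. CCNE2 varied most, by 8.18-fold.

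For CCNE1, CCNA2 and CDK2, all 4 control libraries of the resistant lines were above all 11 of the sensitive lines. How many of all tested genes separate in this way was not counted. CDK2 was at 1690 and 1738 CP20M in MPP89, at 2847 and 3328 in MeT-5A, and at 452 to 1444 in the sensitive lines. CCNA2 was at 1999 to 3665 CP20M in the resistant and 871 to 1929 in the sensitive libraries. CCNE1 followed MPP89 (440 and 474 CP20M), MeT-5A (269 and 361), H2052 (177 and 231), H28 (141 to 189), MSTO-211H (121 to 153) and H2452 (72 to 117), where H2052 overlapped with H28, and H28 with MSTO-211H. Levels differed among the 6 lines for 9 of the 10 genes (limma F test, FDR under 0.05 over all tested genes), and 96.3% of all tested genes did. CCNB1 did not pass (adjusted p = 0.0664). With line means as the units, 0 of the 10 genes passed between resistant and sensitive lines (lowest limma adjusted p = 0.457, for CCNA2), against 0.0899% of all genes (16 genes, and 1535 at an unadjusted p under 0.05). The resistant class has 2 lines, which limits this test. The median difference of all tested genes, resistant minus sensitive, was 0.18 and depended on the scaling. It was 0.0017 with median-of-ratios and -0.21 with upper-quartile scaling. Per kilobase of the canonical transcript, CDC25B and CCNB1 had the highest control levels over the line means (medians of 1514 and 1353 CP20M per kb) and CCNE1 the lowest (95.5), with CDC25C at 120, CCNE2 at 132 and CDC25A at 135.

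**Figure D1:**
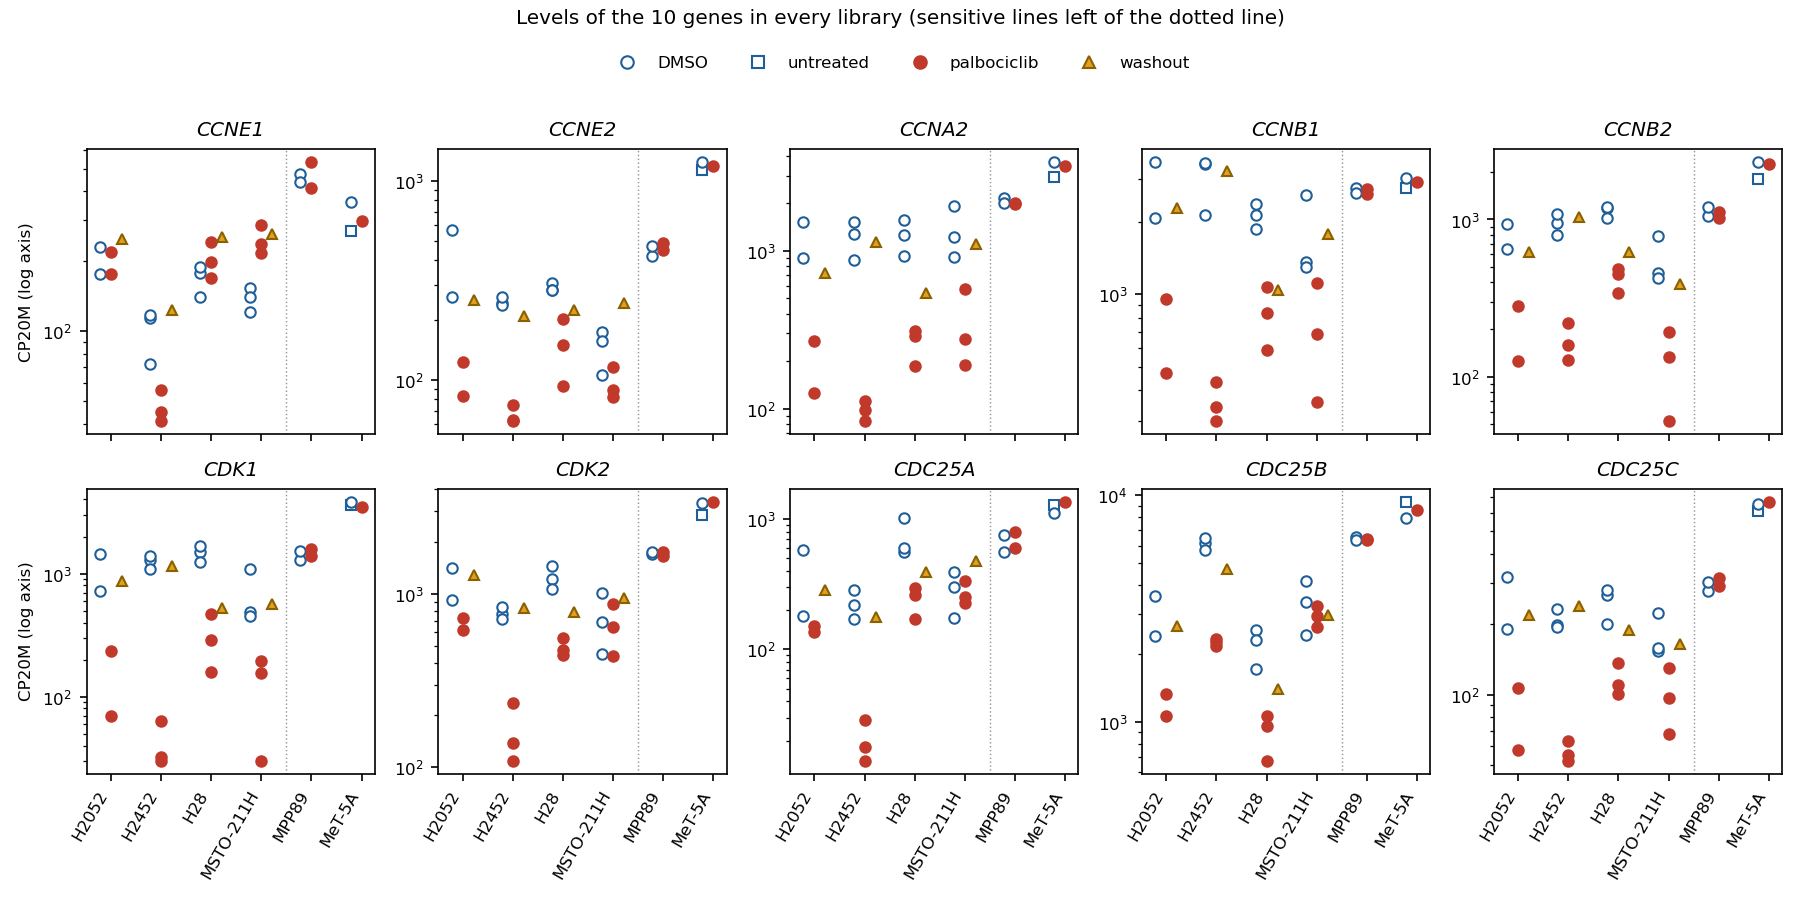
Level of each gene (CP20M, log axis) in every library by line. Open circles are DMSO, the open square is the untreated MeT-5A library, filled circles are palbociclib and triangles are washout. In H2452 the CDK1 points move from 1081 to 1402 down to 30 to 63 with palbociclib, whereas MPP89 and MeT-5A keep their DMSO and palbociclib points together.

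With palbociclib, 9 of the 10 genes fell over the 11 pairs of sensitive lines and CCNE1 alone did not pass, where 9.37% of all tested genes fell (limma on log2(CP20M + 10), FDR under 0.05 and over 1.5-fold). The median change was -1.34 for the 10 genes and -0.11 for all tested genes. CDK1 fell most, at -3.12 on the log2 scale, followed by CCNA2, CCNB2 and CCNB1. The counts of 9 lower and 0 higher were the same with median-of-ratios and upper-quartile scaling, which moved the median of all genes to 0.06 and 0.04 and the split of all called genes from 1669 lower and 994 higher to 919 and 1754 and to 979 and 1661. Values are shares of the RNA of a culture, so fewer cycling cells and less RNA of these genes per cell cannot be told apart. With line means as the units, CDK2 (adjusted p = 0.0635) and CDC25A (adjusted p = 0.0688) no longer passed.

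**Figure D2:**
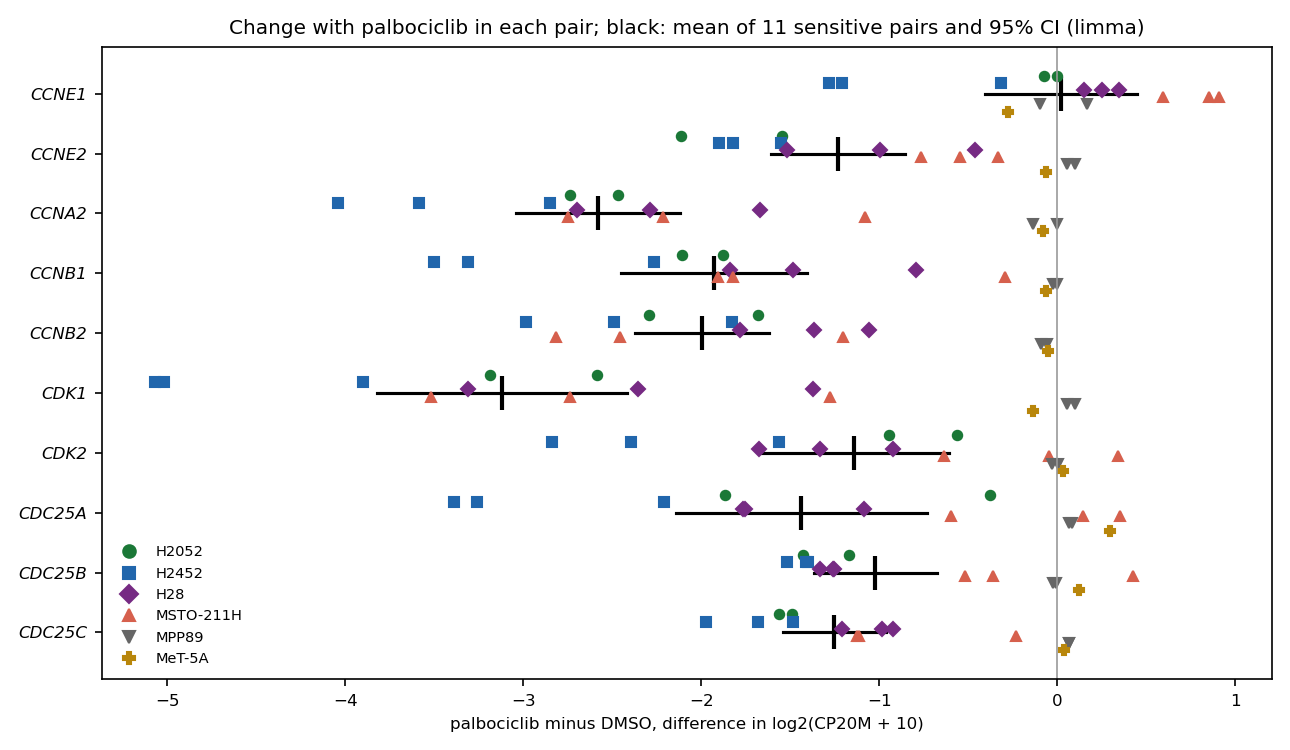
Change with palbociclib, as the difference in log2(CP20M + 10) between the libraries of each pair, for the 10 genes. Symbols are single pairs by line, and the black bar is the limma mean of the 11 sensitive pairs with its 95% CI. The 3 CCNE1 pairs of MSTO-211H lie above 0 and those of H2452 below, and the pairs of MPP89 and MeT-5A lie between -0.27 and 0.30 for all genes.

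CDK1 (ENSG00000170312, GRCh38 chromosome 10 from 60778331 to 60794852, plus strand), the kinase of mitotic entry, had 1446 and 718 CP20M in the DMSO libraries of H2052 and 233 and 70 with palbociclib. In H2452 it went from 1287, 1081 and 1402 to 30, 63 and 32, and in H28 from 1506, 1235 and 1670 to 286, 472 and 159. In MSTO-211H the DMSO libraries had 486, 449 and 1097 and the palbociclib libraries 195, 30 and 156. No treated library of a sensitive line reached its lowest DMSO library, and the residual level was 2.28% to 40.1% of the paired DMSO library (median 9.75%). The fall was -3.12 ± 0.33 (SE, n = 11 pairs, limma adjusted p = 1.07e-05), and the mean went from 1125 to 157 CP20M.

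CCNA2 (ENSG00000145386, chromosome 4 from 121816444 to 121823883, minus strand) is the cyclin of S phase and G2. In the sensitive lines, it had 871, 1255 and 1929 CP20M as the lowest, median and highest DMSO value and 83, 190 and 572 with palbociclib. It fell in all 11 pairs, by -2.58 ± 0.21 (SE, limma adjusted p = 1.92e-06), and the ranges of these lines did not overlap. It shares 254 bases of exons, 9.24% of its exonic bases, with EXOSC9 on the opposite strand. In the sensitive lines, EXOSC9 had 447 to 1134 CP20M with DMSO and 175 to 667 with palbociclib. Whether the counting used strand is not given in the sources used here, and without strand reads of such stretches cannot be told apart.

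In the sensitive lines, the cyclins B, which activate CDK1, moved together. CCNB1 (ENSG00000134057, chromosome 5 from 69167135 to 69178245, plus strand) had 1295, 2139 and 3529 CP20M as the lowest, median and highest DMSO value and 298, 590 and 1111 with palbociclib. CCNB2 (ENSG00000157456, chromosome 15 from 59105126 to 59125045, plus strand) had 427, 929 and 1199 with DMSO and 52, 193 and 486 with palbociclib. Within every sensitive line the treated libraries were below all DMSO libraries for both genes. The falls were -1.93 ± 0.24 for CCNB1 (SE, limma adjusted p = 4.03e-05) and -2.00 ± 0.18 for CCNB2 (SE, limma adjusted p = 3.04e-06). The difference between them was 0.07 ± 0.58 (SD, n = 11 pairs), above 0 in 5 pairs and below in 6 (exact sign-flip permutation test over 11 pairs, two-sided, p = 0.698).

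Promoter sequences from 250 bases before to 50 after a start site were taken from RefSeq (GRCh38.p14) for CCNE1, CCNA2, CCNB1, CCNB2, CDK1, CDC25A, CDC25B and CDC25C, as 15 start sites in all. CCNE2 and CDK2 had no entry. The letters of the CHR element (TTTGAA or TTTAAA, both strands) were in 8 of the 15 promoters, against 24.0% of 35116 promoters, those of the CCAAT box (CCAAT, both strands) in 10 against 34.6%, and those of an E2F site (TTTCCCGC, TTTCGCGC, TTTGCCGC or TTTGGCGC, both strands) in 3 against 3.31%. The start sites of a gene overlap in part, so these promoters are not independent. The stretches below are shown to set the letters beside the changes, with CHR letters near a start site of CCNB1, CCNB2, CDK1 and CDC25C, which fell, and of CCNE1, which did not, E2F letters of CDC25A and CDK1, and a CCAAT box of CCNA2. CCNA2, which fell, had no match to TTTGAA or TTTAAA in this window, and CDC25B had a match at 1 of its 4 start sites. Other forms of the CHR element were not searched, so their presence cannot be told from these matches. Each is 30 bases, 5′ to 3′ on the strand of the gene, with the match in capitals.
CCNB1, CHR letters at -30 (chr5:69167108-69167137, plus strand): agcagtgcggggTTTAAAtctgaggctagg
CCNB2, CHR letters at -29 (chr15:59105105-59105134, plus strand): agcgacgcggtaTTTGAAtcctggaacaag
CDK1, CHR letters at -13 of the second start site (chr10:60778453-60778482, plus strand): tagcgcggtgagTTTGAAactgctcgcact
CDC25C, CHR letters at -30 of the first start site (chr5:138331817-138331846, minus strand): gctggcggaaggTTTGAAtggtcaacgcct
CCNE1, CHR letters at -28 (chr19:29811951-29811980, plus strand): gcgcgcagggatTTTAAAtgtcccgctctg
CDC25A, E2F letters at -44 (chr3:48188444-48188473, minus strand): tggtggattccgTTTGGCGCcaactaggaa
CDK1, E2F letters at 19 of the first start site (chr10:60778338-60778367, plus strand): ctttcctctttcTTTCGCGCtctagccacc
CCNA2, CCAAT letters on the opposite strand at -56 (chr4:121823922-121823951, minus strand): gcgagcgctttcATTGGtccatttcaatag
Positions count bases from the start site, taken as 0, to the first base of the match, and start sites of a gene are numbered by coordinate. CCAAT letters were found 4 times in the CCNB2 promoter and 2 times in that of CCNB1. A match of letters describes the sequence and does not show that a factor binds there.

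The cyclins E parted. CCNE1 (ENSG00000105173, chromosome 19 from 29811991 to 29824312, plus strand) had 231 and 177 CP20M in the DMSO libraries of H2052 and 219 and 177 with palbociclib, and in H28 178, 189 and 141 against 199, 243 and 170. In H2452 it had 114, 72 and 117 with DMSO and 41, 56 and 45 with palbociclib, with no overlap. In MSTO-211H it had 153, 140 and 121 with DMSO and 285, 217 and 236 with palbociclib, again with no overlap but in the other direction. Over the 11 pairs its change was 0.02 ± 0.20 (SE, 95% CI from -0.41 to 0.45, limma adjusted p = 0.938), lower in 4 pairs, higher in 6 and equal in 1. The rise in MSTO-211H was 0.79 ± 0.15 (SE, n = 3 pairs, limma adjusted p = 0.0468), and the difference in H2452 was -0.93 ± 0.24 (SE, n = 3 pairs, limma adjusted p = 0.0571).

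In the sensitive lines, CCNE2 (ENSG00000175305, chromosome 8 from 94879770 to 94896678, minus strand) had 106, 262 and 566 CP20M as the lowest, median and highest DMSO value and 62, 89 and 202 with palbociclib. It was lower in all 11 pairs, and fell by -1.23 ± 0.17 (SE, limma adjusted p = 9.4e-05). MSTO-211H is the sensitive line where its ranges overlapped, with 174, 106 and 158 with DMSO and 116, 82 and 89 with palbociclib. The change of CCNE1 was above that of CCNE2 in 11 of 11 pairs, by 1.25 ± 0.48 (SD, range 0.54 to 2.04, exact sign-flip permutation test over 11 pairs, two-sided, p = 0.000977, the smallest that 11 pairs allow, adjusted p = 0.00293 over 6 differences between related genes). H2452 was included, where both were lower. The pairs are repeat experiments of 4 lines, and with line means as the units this test cannot give a p below 0.125. CCNE2 shares 37.1% of its exonic bases with INTS8 on the opposite strand, whose level in the sensitive lines was 695 to 1191 CP20M with DMSO and 560 to 915 with palbociclib.

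CDK2 (ENSG00000123374, chromosome 12 from 55966781 to 55972789, plus strand), the partner of cyclins E and A, had 1399 and 923 CP20M in the DMSO libraries of H2052 and 723 and 622 with palbociclib. In H2452 it went from 767, 713 and 841 to 138, 235 and 109, and H28 showed 474, 556 and 446 with palbociclib against 1211, 1064 and 1444 with DMSO. In MSTO-211H it had 690, 452 and 1010 with DMSO and 876, 437 and 646 with palbociclib, so that the groups overlapped there and in no other sensitive line. Over the 11 pairs it fell by -1.14 ± 0.25 (SE, limma adjusted p = 0.00207). CDK1 fell further than CDK2 in 11 of 11 pairs, with a difference of -1.98 ± 0.83 (SD, range -3.47 to -0.44, exact sign-flip permutation test over 11 pairs, two-sided, p = 0.000977, adjusted p = 0.00293 over 6 differences). As for the cyclins E, the means of 4 lines cannot give a p below 0.125 in this test.

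In the matrix, the genes most like CDK2 were a pair on the opposite strand of the same locus. The lncRNA AC025162.1 (ENSG00000258554, chromosome 12 from 55966838 to 55967474, minus strand) shares 565 exonic bases with CDK2, and PMEL (ENSG00000185664, from 55954105 to 55973317, minus strand), a melanosome protein gene, spans it and shares 89. PMEL stood at 19.4% to 28.3% of the CDK2 value in each of the 33 libraries (median 24.1%), and AC025162.1 at 22.4% to 28.9% (median 25.7%). In H2452, PMEL went from 189, 152 and 185 CP20M to 39, 64 and 25, and AC025162.1 from 197, 171 and 222 to 36, 68 and 25. The share of these counts that belongs to each gene was not tested, and the CDK2 values hold for the locus as counted.

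**Figure D3:**
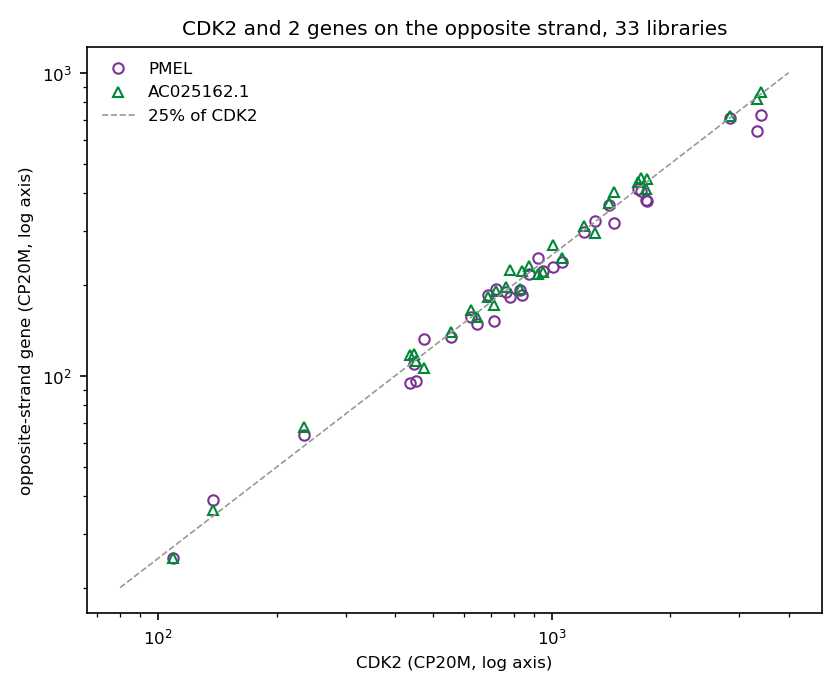
CP20M of PMEL (circles) and AC025162.1 (triangles) against CDK2 in the 33 libraries, both axes logarithmic. The dashed line marks 25% of the CDK2 value, and both genes follow it from the lowest CDK2 library (109 CP20M) to the highest (3400 CP20M).

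Of the CDC25 phosphatases, CDC25A acts at the start of S phase, and CDC25B and CDC25C act on CDK1 before mitosis. CDC25A (ENSG00000164045, chromosome 3 from 48157146 to 48188417, minus strand) had 220, 170 and 283 CP20M in the DMSO libraries of H2452 and 14, 29 and 18 with palbociclib. In H28 it had 1012, 562 and 601 against 293, 260 and 170, and in H2052 578 and 181 against 151 and 137. In MSTO-211H the values were 303, 175 and 389 with DMSO and 336, 226 and 254 with palbociclib, an overlap found in no other sensitive line. Over the 11 pairs it fell by -1.44 ± 0.33 (SE, limma adjusted p = 0.00289).

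CDC25B (ENSG00000101224, chromosome 20 from 3786772 to 3806121, plus strand) was the most even in the other lines. H2452 went from 6161, 5727 and 6473 CP20M to 2309, 2163 and 2250, H28 from 2545, 1708 and 2305 to 1061, 671 and 957, and H2052 from 3587 and 2382 to 1329 and 1054. In MSTO-211H it had 3364, 2420 and 4193 with DMSO and 2621, 3251 and 2923 with palbociclib, again overlapping. Over the 11 pairs it fell by -1.02 ± 0.16 (SE, limma adjusted p = 0.00022).

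In the sensitive lines, CDC25C (ENSG00000158402, chromosome 5 from 138285269 to 138338355, minus strand) had 154, 200 and 318 CP20M as the lowest, median and highest DMSO value and 52, 97 and 137 with palbociclib. It was lower in all 11 pairs, with no overlap within any sensitive line, and fell by -1.25 ± 0.14 (SE, limma adjusted p = 1.29e-05). It shares 8.80% of its exonic bases with FAM53C on the opposite strand, which in the sensitive lines had 990 to 1500 CP20M with DMSO and 895 to 1836 with palbociclib. The differences between CDC25A and CDC25B (-0.42 ± 0.85, SD, adjusted p = 0.271), CDC25A and CDC25C (-0.19 ± 0.99, adjusted p = 0.646) and CDC25B and CDC25C (0.23 ± 0.53, adjusted p = 0.271) did not pass the exact sign-flip permutation test over 11 pairs.

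The lines did not respond alike. Of the 10 genes, H2052 had 8 that fell (against 13.0% of all tested genes), H2452 had 9 (10.8%), H28 had 8 (7.34%) and MSTO-211H had 3 (7.94%) beside the rise of CCNE1 (5.90% of all genes rose). These shares of all genes depend on the scaling, as with median-of-ratios scaling the split of called genes went from 2310 lower and 832 higher to 673 and 1625 in H2052, from 1918 and 1075 to 1161 and 1849 in H2452, from 1306 and 1048 to 977 and 1561 in H28, and from 1413 and 1051 to 627 and 1305 in MSTO-211H. The genes that fell in MSTO-211H were CDK1 (-2.51 ± 0.48, SE, limma adjusted p = 0.0461), CCNB2 (-2.16 ± 0.37, adjusted p = 0.0399) and CCNA2 (-2.02 ± 0.36, adjusted p = 0.0420). CCNB1 did not pass there, with 1365, 1295 and 2587 CP20M with DMSO and 1111, 359 and 684 with palbociclib (-1.34 ± 0.38, SE, limma adjusted p = 0.0822), its weakest pair being replicate 1. CDK2 (-0.11 ± 0.22, SE), CDC25A (-0.03 ± 0.24) and CDC25B (-0.15 ± 0.22) were not called there, and the sign of these 3 turned positive with median-of-ratios and upper-quartile scaling. Beside CCNE1, CDC25A was not called in H2052 (limma adjusted p = 0.144) and CCNE2 was not called in H28 (limma adjusted p = 0.0592). H2452 had the lowest mean change among the 4 lines for every gene but CCNE2, which was at -1.76 there and -1.83 in H2052. In H2452 CDK1 was at -4.66 ± 0.29 (SE, n = 3 pairs), CCNA2 at -3.49 ± 0.26, CCNB1 at -3.03 ± 0.28 and CDC25A at -2.95 ± 0.29. CCNE1 was not called in H2452.

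The response differed among the 4 sensitive lines for 7 of the 10 genes, against 37.1% of all tested genes (limma F test, FDR under 0.05). These were CDC25B (adjusted p = 0.00252), CCNE1 (0.00305), CDC25A (0.00328), CDK2 (0.00378), CCNE2 (0.0125), CDK1 (0.0269) and CCNB1 (0.0284). CCNE1, CDK2, CDC25A and CDC25B passed under all 19 alternatives to this fit, whereas the other calls did not. CCNA2 (adjusted p = 0.0517), CCNB2 (0.201) and CDC25C (0.0511) did not pass. The single-line calls of MSTO-211H are less sure, as 0 of the 4 remained when any of its 3 pairs was left out or with median-of-ratios scaling, and 1 with upper-quartile scaling. The 8 calls in H28 were lost without any of its pairs, those in H2452 without replicate 1 or 3 (10 without replicate 2), and 0 were left in H2052 without the trend of eBayes, 2 without the replicate block and 3 without the filter on low values.

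In the resistant lines, 0 of the 10 genes were called with palbociclib, as were 0 (0%) of all tested genes (limma, 1258 genes at an unadjusted p under 0.05). The changes lay between -0.07 and 0.15 over the 3 pairs, and the 30 single values between -0.27 and 0.30. CDK1 had 1284 and 1536 CP20M in the DMSO libraries of MPP89 and 1379 and 1595 with palbociclib, and in MeT-5A 3850 and 3508. CCNE1 had 474 and 440 with DMSO and 534 and 411 with palbociclib in MPP89, and 361 and 297 in MeT-5A. In MPP89 the DMSO and palbociclib libraries overlapped for both genes, and MeT-5A has 1 library of each kind and no spread of its own.

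The difference in response between sensitive and resistant lines was tested directly. It was called for CCNE2, CCNA2, CCNB1, CCNB2, CDK1 and CDC25C, 6 of the 10 genes, all with the larger fall in the sensitive lines (against 7.81% of all tested genes, limma interaction, FDR under 0.05). CDK1 differed by -3.13 ± 0.66 (SE, adjusted p = 0.00994) and CCNA2 by -2.51 ± 0.43 (SE, adjusted p = 0.00355). CDC25B (adjusted p = 0.0522), CDC25A (0.134), CDK2 (0.152) and CCNE1 (0.914) did not pass. Leaving out either MPP89 pair or the MeT-5A pair left 2 of the 6 calls, CCNA2 and CCNB2.

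After 48 h of washout, 6 of the 10 genes rose over the palbociclib libraries of the same experiments (against 1.40% of all tested genes, limma over 12 libraries with the line as block, FDR under 0.05 and over 1.5-fold). These were CDK1 (2.93 ± 0.46, SE, adjusted p = 0.0217), CCNA2 (2.38 ± 0.28, adjusted p = 0.0101), CCNB1 (1.96 ± 0.34, adjusted p = 0.0267), CCNB2 (1.86 ± 0.28, adjusted p = 0.0185), CCNE2 (1.41 ± 0.19, adjusted p = 0.0125) and CDC25C (1.23 ± 0.24, adjusted p = 0.0444). CDC25A (1.44 ± 0.41, adjusted p = 0.153), CDK2 (1.30 ± 0.37, adjusted p = 0.151), CDC25B (0.73 ± 0.20, adjusted p = 0.125) and CCNE1 (0.61 ± 0.27, adjusted p = 0.383) did not pass. All 10 genes were above the palbociclib library in all 4 lines, but how many of all tested genes were so was not counted. The median change of all tested genes was 0.09. The smallest rise, of CDC25B in MSTO-211H, was from 2923 to 2954 CP20M. There was 1 washout library per line, and 0 of the 6 calls were left without H2052, H2452 or MSTO-211H, 2 without H28 and 0 without the replicate block, and CDC25C was called in 3 of 12 alternatives.

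**Figure D4:**
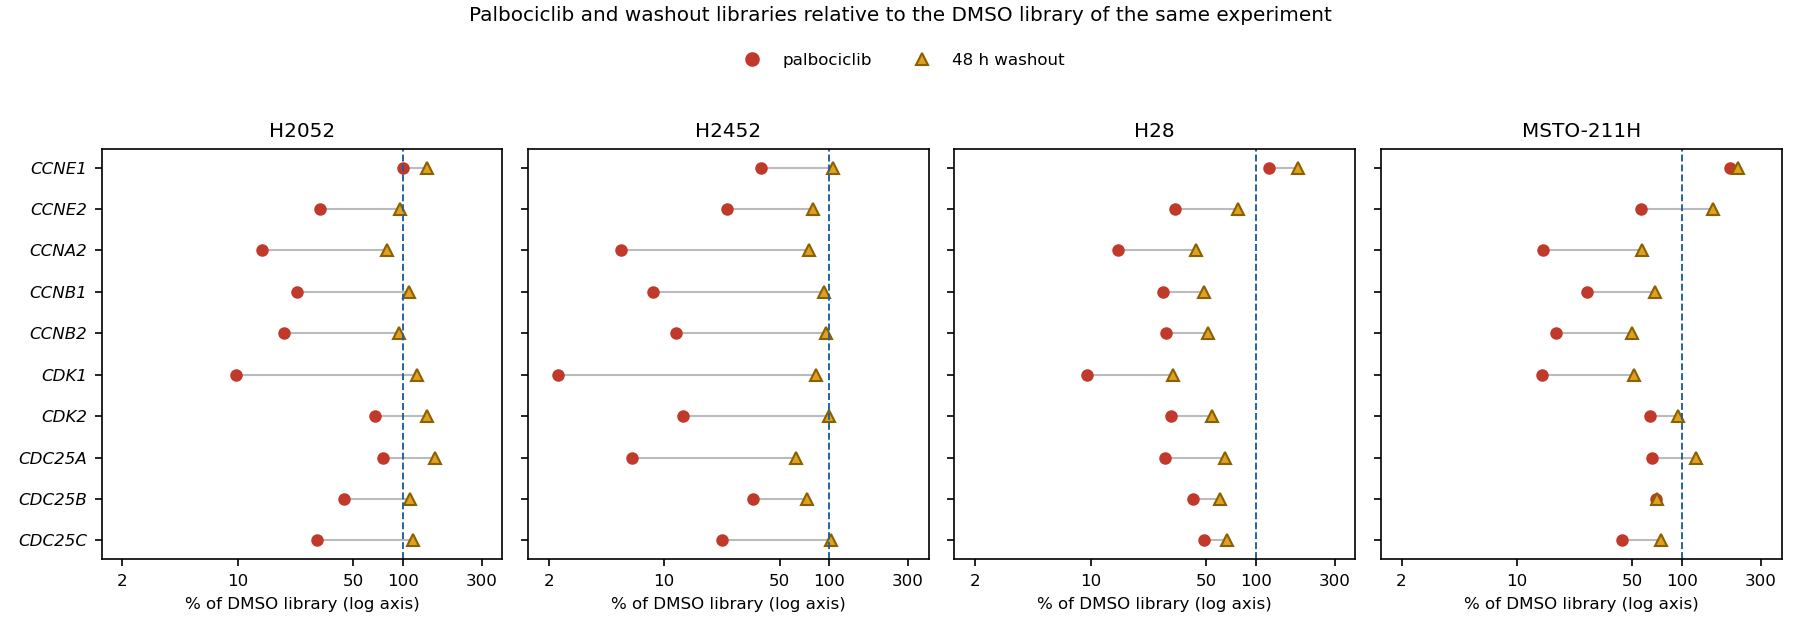
Palbociclib library (circles) and 48 h washout library (triangles) of each sensitive line as a percent of the DMSO library of the same experiment, on a log axis. The dashed line is the DMSO level. Washout libraries lie below it for 3 of 10 genes of H2052, 8 of H2452, 9 of H28 and 7 of MSTO-211H, and CCNE1 lies above it in all 4 lines.

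Washout brought the genes to different shares of the DMSO library. CDK1 had 718, 70 and 872 CP20M with DMSO, palbociclib and washout in H2052, and 1402, 32 and 1159 in H2452. H28 had 1670, 159 and 525 and MSTO-211H had 1097, 156 and 561, which are 31.4% and 51.1% of DMSO after washout against 121% in H2052 and 82.7% in H2452. The median over the 10 genes was lowest for H28, with 57.4% of DMSO, followed by MSTO-211H with 72.2%, H2452 with 88.0% and H2052 with 113%. CCNA2 and CCNB2 were below DMSO in all 4 lines after washout, at 43.3% to 80.5% and 49.7% to 95.8%.

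Of the 10 genes, CCNE1 alone was above the DMSO library of the same experiment in all 4 lines after washout. With DMSO, palbociclib and washout, H2052 had 177, 177 and 248 CP20M, H2452 117, 45 and 123, H28 141, 170 and 254, and MSTO-211H 121, 236 and 263. The washout value was above DMSO in 4 of 4 lines, at 105% to 217%, and it was also above every DMSO library of the same line in all 4. How many of all tested genes were above DMSO in these ways was not counted. The difference from DMSO did not pass (0.60 ± 0.27, SE, limma adjusted p = 0.176). Washout against DMSO called 0 of the 10 genes, against 5.76% of all tested genes, and the count was 0 in every alternative. These comparisons share the washout libraries, and the palbociclib and DMSO libraries are also among the 11 pairs.

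Genes that act on these cyclins and kinases were listed by role, with earlier results of these data known. Of 21 kinases, inhibitors, CKS proteins and phosphatase regulators that activate or restrain CDK1 and CDK2, 12 fell in the 11 sensitive pairs and 0 rose (median change -0.80), where 9.37% of all tested genes fell. PLK1, which activates CDC25C and mitotic entry, fell by -2.66 ± 0.28 (SE, limma adjusted p = 1.15e-05), CDKN3, a phosphatase of CDK2, by -2.51 ± 0.17 (adjusted p = 4.06e-07) and AURKA, which activates PLK1, by -1.50 ± 0.25 (adjusted p = 0.000358). Restraining genes were among those that fell, with WEE1 at -0.88 and PKMYT1 at -1.25, the kinases that oppose the CDC25 phosphatases, and CDKN1B (p27) at -0.80. CDKN1A (p21) was at -0.01 (adjusted p = 0.953) and CDK7, the CDK-activating kinase, at 0.08 (adjusted p = 0.495). WEE1, PKMYT1, CDKN1B, CDKN1A and CDK7 were chosen after their values were seen.

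Of 12 genes of the ubiquitin pathways that remove cyclins and CDC25 proteins, 6 fell and 0 rose (median -0.64, again against 9.37% of all genes lower). UBE2C (-2.66 ± 0.32, SE, limma adjusted p = 2.82e-05) and CDC20 (-2.42 ± 0.26, adjusted p = 1.15e-05) belong to the machinery that destroys cyclin B, and FBXO5 (-2.00 ± 0.16, adjusted p = 1.83e-06) inhibits it. Of 19 regulators of transcription, 7 fell and 0 rose (median -0.43, against the same 9.37%), led by MYBL2, which encodes B-MYB (-2.94 ± 0.33, adjusted p = 1.75e-05), FOXM1 (-2.44 ± 0.24, adjusted p = 7.81e-06) and E2F2 (-2.39 ± 0.40, adjusted p = 0.000321). After washout, 5 of the 21, 4 of the 12 and 2 of the 19 rose over palbociclib, against 1.40% of all tested genes. PLK1, CDKN3, UBE2C, CDC20, FBXO5, MYBL2 and FOXM1 were among them, whereas AURKA (adjusted p = 0.0583) and E2F2 (adjusted p = 0.0593) did not pass.

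Most of the other cyclins and CDKs were not called, which held for most of all tested genes too (15% called in either direction). Of 19 tested cyclins outside the 10 genes, CCNI fell (-0.61 ± 0.14, SE, limma adjusted p = 0.00269). CCND1 (1.19 ± 0.10, limma adjusted p = 2.46e-06) and CCND2 (2.27 ± 0.38, adjusted p = 0.00033), which bind CDK4 and CDK6, rose. CCND3, which binds them too, was not among the called genes. This is 3 of 19, against 2663 of all 17803 tested genes called in either direction. After washout CCND1 and CCND2 had not changed detectably from palbociclib, with differences of -0.12 (adjusted p = 0.821) and -0.09 (adjusted p = 0.972). Of 18 other CDKs, CDK3 fell (-0.60 ± 0.10, limma adjusted p = 0.000321), where 9.37% of all tested genes fell. Of the marker lists, CALB2 was the 1 of 10 tested mesothelial markers that rose (1.69 ± 0.41, limma adjusted p = 0.00409), where 5.58% of all tested genes rose. MYH11 was the 1 of 5 other tested markers that fell (-0.84 ± 0.10, limma adjusted p = 2.17e-05), where 9.37% of all tested genes fell. Their part in the results above was not tested.

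Across the 33 libraries, with each line centred on its own mean of log2(CP20M + 10), the 9 genes other than CCNE1 correlated with each other at r from 0.76 to 0.99 (median 0.89 over 36 pairs of genes). CCNE1 correlated with them at 0.22 to 0.57 (median 0.35 over 9 pairs). These libraries share lines, experiments and the drug, so the values describe the set. The genes most like CDK1 were TTK (0.995) and TOP2A (0.994), and those most like CCNB1 were CDCA8 (0.995) and TPX2 (0.992). NEK2 was closest to both CCNA2 (0.989) and CCNB2 (0.988), and SPAG5 (0.974), NT5DC4 (0.970) and TYMS (0.969) were closest to CDC25C. For CCNE2 they were FAM111B (0.963) and ZWINT (0.945), for CDC25A GINS1 (0.965) and DNMT1 (0.962), for CDC25B RNF26 (0.933) and H2AFX (0.927), and for CDK2, beside AC025162.1 (0.990) and PMEL (0.987), HJURP (0.969). CCNE1 was most like RBPMS2 (0.842), PHLPP2 (0.804) and PRRG4 (0.796), none of them a gene of the lists.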

How the data were processed

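The deposited matrix holds, for 33 libraries of 6 cell lines, a normalized score, the CP20M: per the methods of the authors, reads of directional paired-end libraries were trimmed (Trimmomatic 0.36), mapped to GRCh38 (STAR 2.5.3), counted per gene (HTSeq 0.9.1, Ensembl release 90) and scaled to 20000000 reads, rounded up. Tool versions are from the submitters' processing notes. DESeq2, with which the authors called genes, models unscaled counts and was not applied. Here log2(CP20M + 10) was fitted with limma 3.58.1 (trend, experiment as block) in R 4.3.3 over 17803 genes with 100 CP20M in at least 1 library, with Benjamini-Hochberg adjustment. A gene was called at an FDR under 0.05 and over 1.5-fold, or by the FDR alone for interactions, F tests and control levels. DMSO and palbociclib libraries of a line were paired by their number. Same-numbered libraries deviated together (r from 0.18 to 0.78 across genes). Libraries of unlike number were not compared, so this does not test the pairing. Differences between related genes used exact sign flips. The functions were tested on simulated data. Replicate libraries had equal values at 4.33% of genes or fewer.

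The 10 genes and all lists were chosen with earlier results of these data known. Genes named from the lists are the 3 largest called falls and rises over the sensitive pairs, beside WEE1, PKMYT1, CDKN1B, CDKN1A and CDK7, chosen after their values were seen, and the genes most alike are the 3 with the highest r. Positions and overlaps are from GENCODE 44. Alternatives were pseudocounts of 1 and 50, other filters and scalings, no trend, no block, line means and leaving out pairs or lines. Figures were drawn with matplotlib 3.10.9.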

Additional observations from a re-analysis of the deposited data

Results flagged for a closer look

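The response to palbociclib differed between sensitive and resistant lines for CCNA2 (limma adjusted p = 0.00355), CCNB2 (0.00513), CDC25C (0.00874), CDK1 (0.00994), CCNB1 (0.0249) and CCNE2 (0.0326), with 11 pairs against 3. It differed among the 4 sensitive lines for CDC25B (limma adjusted p = 0.00252), CCNE1 (0.00305), CDC25A (0.00328), CDK2 (0.00378), CCNE2 (0.0125), CDK1 (0.0269) and CCNB1 (0.0284). CCNE1 is the gene whose pairs all moved up in MSTO-211H and all moved down in H2452.

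The rise of CDC25A from palbociclib to washout in H2452, 2.74 on the log2 scale (18 to 177 CP20M), lay apart from those of the other 3 lines (0.87 to 1.15). By the Dixon rule for 4 values, CDC25A was the only one of the 10 genes with a line apart in either washout comparison. Chance sets such a line apart in about 1 of 20 groups (20 were examined). CDK2 also had its largest rise in H2452, at 2.82 against 0.55 to 1.04 in the other lines, but did not meet the rule.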

How the results depend on the processing

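Over the 11 sensitive pairs, 9 genes were called lower in 19 of 20 alternatives, all leave-outs included, and 7 with line means as the units. The counts of 0 in the resistant lines, in washout against DMSO and between the control levels of the classes were 0 in every alternative. In H2052, the 8 calls became 3 with no filter, 0 without trend and 2 with no replicate block. With 2 pairs, leaving 1 out leaves no residual degrees of freedom and was not run. Leaving out pairs gave 0 to 10 calls in H2452 (9 with all pairs), 0 in H28 (8) and 0 in MSTO-211H (4), which was also 0 with no filter or median-of-ratios scaling and 1 with upper-quartile scaling. The interaction count of 6 ranged from 2 to 7 over left-out pairs, and the count of 7 among sensitive lines from 5 to 10, with 4 when the replicate block was dropped. The 6 washout calls became 0 to 2 without a line, 0 with no replicate block, 5 with median-of-ratios and 4 with upper-quartile scaling, and the 6 interaction calls became 5 with either scaling. Control levels among lines gave 6 to 10 (9). The causes were not tested, apart from the fewer samples of the leave-outs. Of the 6 differences between related genes, 2 passed, and 0 with line means, where 4 lines cannot give a p below 0.125.

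Signs turned only where no call was made. CCNE1 over the 11 pairs ranged from -0.067 to 0.15 over left-out pairs and was 0.27 and 0.31 in H2052 with median-of-ratios and upper-quartile scaling. In MSTO-211H these scalings gave 0.057 and 0.036 for CDK2, 0.14 and 0.11 for CDC25A and 0.023 and 0.0015 for CDC25B, and leaving out a pair gave -0.34 to 0.15, -0.23 to 0.25 and -0.44 to 0.033. Washout against DMSO turned to 0.067 for CCNE2 and 0.0044 for CDC25A with median-of-ratios scaling, and with a line left out ranged from -0.23 to 0.076 for CCNE2, -0.33 to 0.12 for CDK2 and -0.33 to 0.096 for CDC25A. CCNB1 minus CCNB2 was -0.074 and CDC25B minus CDC25C -0.033 with a pseudocount of 50, and without a line CDC25A minus CDC25C ranged from -0.55 to 0.21 and CCNB1 minus CCNB2 from -0.21 to 0.32. A read is worth at most 1.57 CP20M where depth could be estimated, so the lowest values, such as CDC25A at 14 CP20M, rest on few reads.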
